A study of Mus musculus with 14 samples.

Results

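The ribosomal protein genes of the cytosolic ribosome were described across E4.0 mouse blastocysts made by cloning or by *in vitro* fertilization (IVF). Members were chosen by name alone. They are the gene probes whose gene name begins with *Rpl* or *Rps* and a digit, together with *Rpsa*, *Rplp0*, *Rplp1* and *Rplp2*, without the *Rps6k* kinases and without names tagged as pseudogenes. The rule took 137 of the 41174 gene probes of the array, and these fell on 82 of the 27962 gene names it carries. By their names, 46 of the genes were counted to the large subunit, 32 to the small subunit and 3 to the stalk. The remaining gene, *Rps19bp1*, codes for a protein that binds the product of *Rps19* and was taken in only through its name. In all, 41 genes had 1 probe and 41 had 2 or more.

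The study made cloned embryos by putting the nucleus of a cumulus cell, a somatic cell that surrounds the ovulated oocyte, into an enucleated oocyte. Gene expression was measured on 14 arrays, with 4 female clones made by cell fusion (fusion clones), 4 female clones made by nuclear injection (injection clones), 3 male IVF-derived embryos and 3 female IVF-derived embryos. Embryos of every group were cultured in KSOM to E4.0. The study's methods took donor cells from heterozygous *Xist* knockout mice of BDF1 background and oocytes from BDF1 females, the sample labels do not state the *Xist* genotype of any embryo, and the series describes its IVF controls as matched for sex and genotype. RNA came from single embryos and passed through a linear amplification in 2 rounds before Cy3 labelling, and the protocol in the labels names epiblasts or extraembryonic regions as its source although the tissue label is blastocyst. Nothing in the labels says whether embryos of a group came from separate cultures or donors, so p-values measure the spread between these samples only.

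A ribosome joins a small subunit, which reads the mRNA, to a large subunit, which forms the peptide bond. Most ribosomal proteins are needed in about the same amount, and mammalian cells keep their supply in balance partly through the mRNAs, many of which start with a C followed by a run of pyrimidines, the 5′ terminal oligopyrimidine (TOP) tract, through which mTOR signalling controls their translation. The mouse embryo makes its own ribosomes well before the blastocyst stage, and ribosomal protein mRNAs are among its most abundant. They also have many processed pseudogenes and several close paralogs, so that a probe may hybridize to more than 1 transcript.

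Start regions are shown for 4 of the genes with a probe that differed between clones and female IVF-derived embryos. They were picked as examples with and without a TOP-like run near the annotated start. Each window holds 20 bases before the RefSeq start and 20 bases from the start on, read on the transcribed strand, 5′ to 3′ (GRCm38.p6). Capitals mark every run of at least 6 bases that begins with C and holds only C and T. The windows lie at chr7:118116128-118116167 (minus strand, the start of *Rps15a*), chr17:33955646-33955685 (minus strand, the start of *Rps18*), chr1:72711240-72711279 (plus strand, the start of *Rpl37a*) and chr3:86142649-86142688 (minus strand, the start of *Rps3a*, which RefSeq lists as *Rps3a1*).
Rps15a: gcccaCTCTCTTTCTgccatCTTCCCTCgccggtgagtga
Rps18: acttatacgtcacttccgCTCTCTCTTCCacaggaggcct
Rpl37a: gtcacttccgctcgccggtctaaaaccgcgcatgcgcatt
Rps3a: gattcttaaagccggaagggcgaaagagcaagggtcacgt
*Rps15a* held 2 runs, one of 10 bases that began 15 bases before the annotated start and one of 8 bases that began at it. The run of *Rps18* had 11 bases and began 2 bases before the annotated start. The windows of *Rpl22*, *Rps19* and *Rps28*, which also had a called probe, held no run and are not shown. For *Rps18* the called probe was not one of those designed on the curated transcript. Windows were found for 61 of the 81 ribosomal protein genes, and 36 of them (59.0%) held at least 1 such run, against 7932 of 27025 windows of all genes (29.4%). A run is a description of these letters only, since the annotated start can lie some bases from the start in use.

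The signal of ribosomal protein genes was high in every group. Of the 137 probes, 123 (89.8%) were well above background on all 14 arrays, against 42.4% of all gene probes, 13 were so on some arrays, and 1 on no array (*Rpl3l*). No spot of a member was saturated. For 79 genes the brightest probe was well above background on every array, and the mean log2 intensity of these probes over the arrays ran from 9.21 to 18.68 with a median of 16.92. In 71 of these genes the mean was at least 14, a level that 6.15% of all gene probes reached. Probes differ in how well they bind, so their order is not an order of transcript levels.

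The groups lay close to each other in the median over the brightest probes of the 82 genes, taken on each array over the genes with a value there. *Rpl13a* had a value on every clone array but on none of the male and 1 of the 3 female arrays, and *Rps23* on 2 of the 3 male arrays. It was between 16.74 and 16.81 on the 4 fusion clone arrays and between 16.73 and 16.81 on the 4 injection clone arrays. It was between 17.07 and 17.32 on the 3 male arrays and between 16.87 and 17.12 on the 3 female arrays. The clone arrays thus lay below the IVF arrays without overlap, the nearest at 16.81 and 16.87, though not over quite the same genes. The median of all probes was between 5.84 and 5.89 on every array, a closeness that quantile normalization largely fixes in advance. For the 79 genes relative to their own mean over the arrays, the order was less clear, because the median deviation of fusion clone replicate 1 (0.01) reached that of female replicate 1 (0). Male replicate 1 stood highest, with a median deviation of 0.34 and 66 of the 79 genes above their mean.

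**Figure D1:**
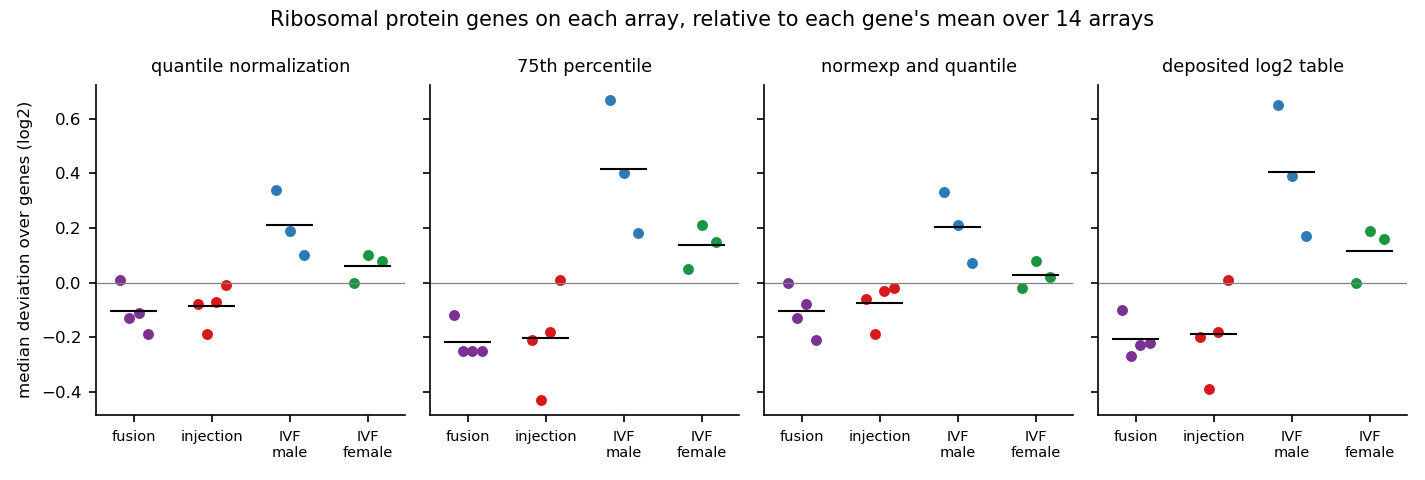
Median over 79 member genes of the deviation from each gene's mean over 14 arrays (log2), 1 point per array and a bar at the mean of each group, under 4 ways of putting the arrays on 1 scale. The 3 male arrays lie between 0.10 and 0.34 under quantile normalization and between 0.18 and 0.67 under the 75th percentile, and the clone arrays are at or below 0.01 in every panel.

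Each group occupied a slide of its own. The clone arrays were scanned on a G2505C scanner and read with one version of the Feature Extraction software, and the IVF arrays on a G2505B scanner with an earlier one (9.5.3.1), so the slide cannot be told apart from the group in any comparison, nor the scanner and software in the comparisons of clones with IVF-derived embryos. Both clone types shared scanner and software, as did both IVF groups. In bulk samples such as these, fewer cells of a type and less RNA per cell cannot be told apart either. Markers of the blastocyst lineages were present in all groups. The summed log2 level of 4 epiblast markers, all well above background on every array, was 16.34 to 16.64 in fusion clones, 16.40 to 17 in injection clones, 16 to 16.19 in male and 15.96 to 16.33 in female IVF-derived embryos. The sums of the clones thus lay above both IVF groups, for fusion clones only just. Gene by gene, 2 of the 4 were above 0 against female embryos in fusion clones (median 0.11) and 3 in injection clones (median 0.73). That of 6 trophectoderm markers was 19.43 to 19.81, 19.28 to 19.74, 19.80 to 19.84 and 19.72 to 19.95 in the same order, and that of 4 primitive endoderm markers 16.18 to 17.29, 15.91 to 17.05, 15.95 to 16.54 and 16.43 to 17.03. These sums overlapped between clones and female embryos, but gene by gene the primitive endoderm markers, of which 2 of 4 were well above background on all arrays, had a median difference from female embryos of -1.82 in fusion and -2.54 in injection clones, with 1 and 0 of the 4 above 0 and none called. Of 8 cumulus cell markers none was well above background on all arrays, and their summed level was 7.11 to 7.65, 7.09 to 9.52, 7.11 to 10.64 and 7.07 to 8.75. Of these markers 1 passed the test in a comparison of clones with female embryos, the epiblast gene *Zfp42*, which rose by 0.93 (SE 0.17, adjusted p = 0.0448) in injection clones. The part of cell make-up in the differences below was not tested.

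After quantile normalization, the ribosomal protein genes varied little between embryos of a group. The median SD of the 79 genes between arrays was 0.12 in fusion clones, 0.13 in injection clones, 0.18 in male and 0.15 in female IVF-derived embryos. Over all 17470 probes detected on every array it was 0.31, 0.37, 0.45 and 0.40, and over the 2269 of these with a mean of at least 14 it was 0.18, 0.21, 0.27 and 0.23. The SD of a single gene in a single group ran from 0.01 to 0.96. Quantile normalization gives all arrays the same distribution, and gene SDs were not taken under another scaling. With 75th percentile scaling, the median deviations of male arrays ran from 0.18 to 0.67, beside 0.10 to 0.34 as reported. Those of injection clones ran from -0.43 to 0.01 (beside -0.19 to -0.01) and of female embryos from 0.05 to 0.21 (beside 0 to 0.10). Fusion clones did not widen (-0.25 to -0.12, beside -0.19 to 0.01). The genes also tended to deviate together, with a mean pairwise Pearson correlation of 0.19 between genes after removal of the group means, against 0.01 over all detected probes and 0 over the bright ones. That is a description over 14 arrays of genes that share each array's amplification and scaling.

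**Figure D2:**
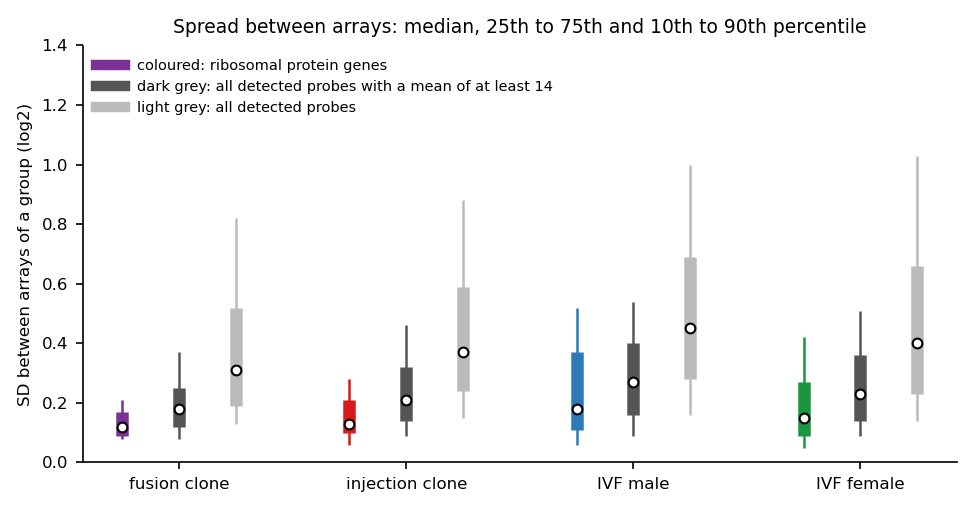
SD between the arrays of a group (log2, after quantile normalization) for 79 member genes (coloured), 2269 detected probes with a mean of at least 14 (dark grey) and all 17470 detected probes (light grey). Points are medians, boxes the 25th to 75th and lines the 10th to 90th percentile, and the coloured median is the lowest of the 3 in each of the 4 groups.

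Fusion clones were compared with female IVF-derived embryos to ask how cloning by fusion affected expression at matched sex. Among the 80 genes tested by their brightest probe, 3 were lower and none was higher. *Rpl37a*, a large subunit protein, fell by 0.77 (SE 0.15, adjusted p = 0.0335), *Rps15a*, a small subunit protein, fell by 0.87 (SE 0.19, adjusted p = 0.0379), and *Rps3a*, also of the small subunit, fell by 0.67 (SE 0.16, adjusted p = 0.0494), all on the log2 scale. Here and below the p-values come from limma across all tested probes with Benjamini-Hochberg adjustment, and a gene or probe counts as changed at an adjusted p below 0.05.

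Counted over probes, 2 of 134 were higher and 6 lower. The background over all 32323 tested probes was 4.36% higher and 5.02% lower, so the 5.97% of member probes called did not exceed the 9.38% called in all, and unadjusted p-values were below 0.05 for 25% of the genes and 27.1% of all tested probes. The study's methods name a 5% level with a 2-fold filter and do not say whether p-values were adjusted. At that threshold, taken here with unadjusted p-values, 2 of the probes and none of the 80 genes passed, against 17.3% of all tested probes. Most members are bright, and of the 2477 tested probes with a mean of at least 14, 140 passed. The median difference over the 80 genes was -0.14, with a range from -0.87 to 0.71, beside -0.12 over all tested probes and -0.04 over the 2477 with a mean of at least 14. Differences were small: 66 of 80 genes (82.5%) lay within 0.5 of 0, against 45.7% of all tested probes. The median absolute difference was 0.23 over the genes, 0.31 over the 2477 bright probes and 0.56 over all tested probes. The median half-width of the 95% interval of a gene's difference, without adjustment, was 0.42. Calls rest on adjusted p-values and ask for larger differences, and even the 0.71 at the upper end of the range was not called.

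The share of genes below the controls on every array exceeded that of all tested probes. It was not counted for the bright probes alone. The 4 fusion clones were all lower than the 3 female embryos in 22 of 80 genes (27.5%), against 15.4% of all tested probes, and all higher in 10 genes (12.5%), against 10.4%. In *Rps15a* the 4 fusion clones were at 13.97, 13.85, 13.94 and 13.60, the 4 injection clones at 13.95, 13.53, 14.04 and 14.21, the 3 male embryos at 14.45, 14.73 and 14.73, and the 3 female embryos at 14.87, 14.76 and 14.51. In this probe every clone lay below every IVF-derived embryo, and male and female embryos overlapped. The other probe of *Rps15a* (A_52_P491433) differed by -0.08 (SE 0.47, adjusted p = 0.926) in fusion and 0.45 (SE 0.46, adjusted p = 0.591) in injection clones, and its clones overlapped the IVF-derived embryos. In *Rpl37a* the fusion clones were at 16.27, 16.14, 16.06 and 16.12, the injection clones at 15.48, 16.27, 16.14 and 16.33, the male embryos at 17.49, 17.06 and 16.86, and the female embryos at 16.82, 16.97 and 16.95. The same separation held, with injection clone replicate 1 the lowest of all. In *Rps3a* the fusion clones were at 16.86, 16.71, 16.76 and 16.55, the injection clones at 16.73, 16.46, 16.78 and 16.98, the male embryos at 17.27, 17.08 and 17.39, and the female embryos at 17.38, 17.41 and 17.38. The 3 female embryos were almost level, and again no clone reached an IVF-derived embryo.

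The calls were few and near the threshold. Leaving out any 1 of the 7 arrays left none of the 3 genes called, and with a floor of 1 in place of 16 none was called either, while a floor of 32 called 10 genes lower and 6 higher. With arrays scaled to their 75th percentile, 9 genes were lower, and the median over the genes was -0.33 beside -0.06 over all tested probes.

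**Figure D3:**
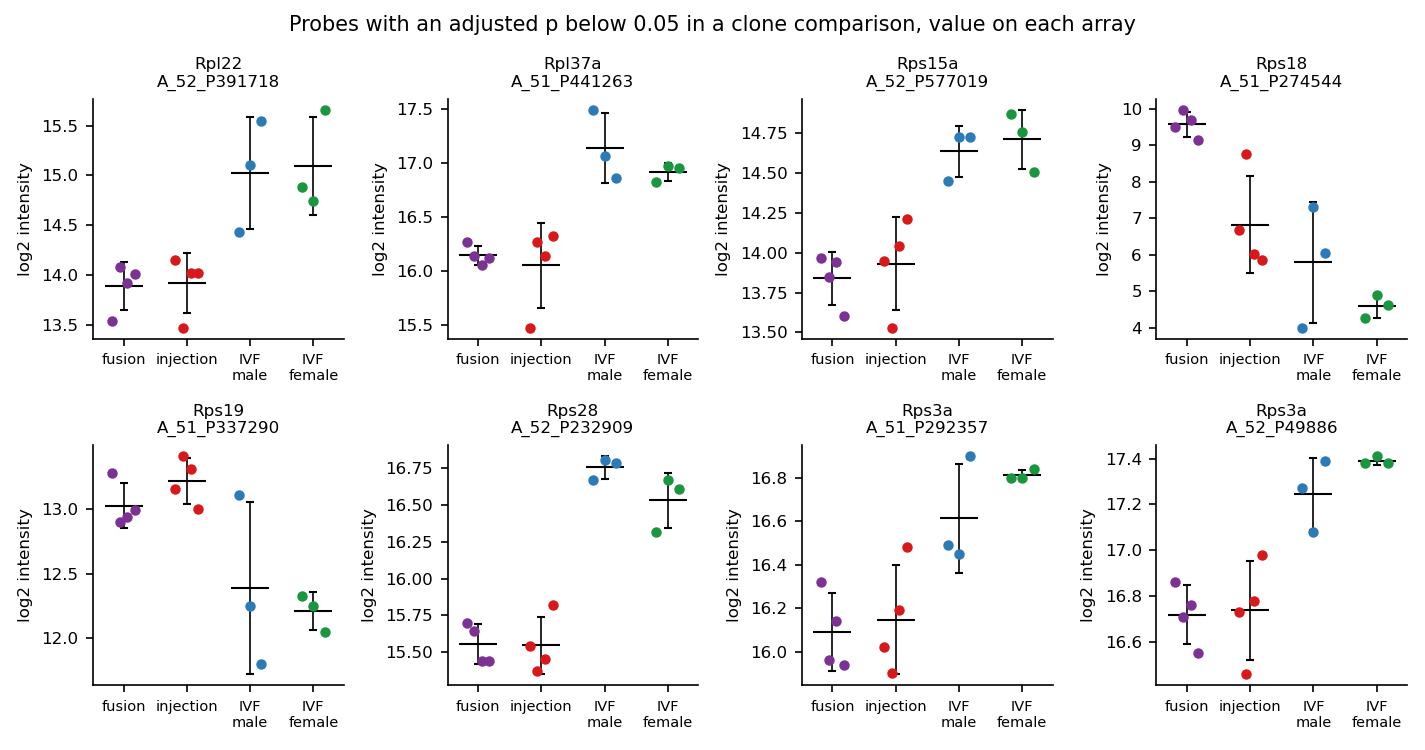
Log2 intensity on each array for the 8 probes with an adjusted p below 0.05 in a comparison of clones with female embryos, with the mean and SD of each group of 4 clones or 3 IVF-derived embryos (each panel has its own axis). The clones lie below every IVF-derived embryo in 5 panels (*Rpl22*, *Rpl37a*, *Rps15a*, *Rps28* and the brighter *Rps3a* probe), and for *Rps18* the 4 fusion clones, at 9.16 to 9.98, stand above all other arrays.

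Of the named large subunit genes, none other passed the test. *Rpl5* and *Rpl11*, whose products bind Mdm2 together with the 5S RNA, differed by 0.07 (SE 0.16, adjusted p = 0.798) and -0.43 (SE 0.17, adjusted p = 0.158) in fusion clones. In injection clones the values were 0.05 (SE 0.14, adjusted p = 0.847) and -0.32 (SE 0.14, adjusted p = 0.228). This brightest probe of *Rpl11* was lower in every clone than in every female embryo, whereas *Rpl5* changed sign in some alternatives. The other probe of *Rpl11* (A_52_P566208) went the other way, by 0.86 (SE 0.40, adjusted p = 0.222) in fusion and 1.04 (SE 0.43, adjusted p = 0.216) in injection clones. *Rpl38*, known for its role in the translation of Hox mRNAs, differed by -0.39 in fusion and -0.30 in injection clones (adjusted p = 0.18 and 0.279), and *Rpl24* by 0.20 and 0.32 (adjusted p = 0.51 and 0.313). *Rpl3*, which lies near the catalytic centre, was higher in every clone than in every female embryo, by 0.56 (SE 0.16, adjusted p = 0.0734) in fusion and 0.37 (SE 0.14, adjusted p = 0.186) in injection clones.

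The small subunit genes gave a similar picture. *Rps6*, the target of the S6 kinases, differed by -0.09 (SE 0.20) and -0.05 (SE 0.21), with adjusted p = 0.782 and 0.911, and its sign turned in some alternatives. *Rpsa*, also known as the laminin receptor, differed by 0.36 (SE 0.16, adjusted p = 0.198) and 0.30 (SE 0.19, adjusted p = 0.395). By subunit, 1 of 44 large and 2 of 32 small subunit genes were lower in fusion clones and none was higher, with medians of -0.16 and -0.12. In injection clones none was called in either subunit, and the medians were -0.11 and -0.12.

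The stalk is the part of the large subunit that recruits the translation factors. None of its 3 genes passed the test. *Rplp0* differed by 0.36 in fusion and 0.15 in injection clones (adjusted p = 0.318 and 0.669), *Rplp1* by 0.03 and -0.04 (adjusted p = 0.913 and 0.832), and *Rplp2* by -0.29 and -0.25 (adjusted p = 0.286 and 0.298). *Rplp2* was lower in every clone than in every female embryo, and *Rplp1* changed sign in some alternatives.

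Paralogs were set beside their parent genes. *Rpl22l1* differed by -0.72 (SE 0.38, adjusted p = 0.288) in fusion and -0.69 (SE 0.40, adjusted p = 0.367) in injection clones, and the brightest probe of its parent *Rpl22* by -0.45 and -0.27 (adjusted p = 0.201 and 0.419). Among brightest probes, *Rpl36al* had the largest positive difference, at 0.71 (SE 0.17, adjusted p = 0.0522) and 0.76 (SE 0.19, adjusted p = 0.082), with every clone above every female embryo. Its X-linked parent *Rpl36a* differed by 0.23 and 0.18 (adjusted p = 0.562 and 0.6). *Rps27l* and *Rps27* differed by -0.25 and -0.12 in fusion and by -0.27 and 0 in injection clones, and *Rpl7l1* and *Rpl7* by -0.09 and -0.24 in fusion and by -0.08 and -0.23 in injection clones. None of these was called.

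The 4 X-linked members were looked at separately, since the study's methods describe *Xist* knockout donors, although the labels state no *Xist* genotype. None was called, and their median difference was -0.04 in fusion and -0.08 in injection clones. *Rps4x*, a small subunit protein, differed by -0.16 and -0.13, and *Rpl10*, which completes the large subunit in the cytoplasm, by -0.30 and -0.15. *Rpl39*, a small protein at the exit tunnel, differed by 0.08 and -0.03, with a sign that turned in some alternatives. No X-linked member separated the clones from the female embryos without overlap.

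**Figure D4:**
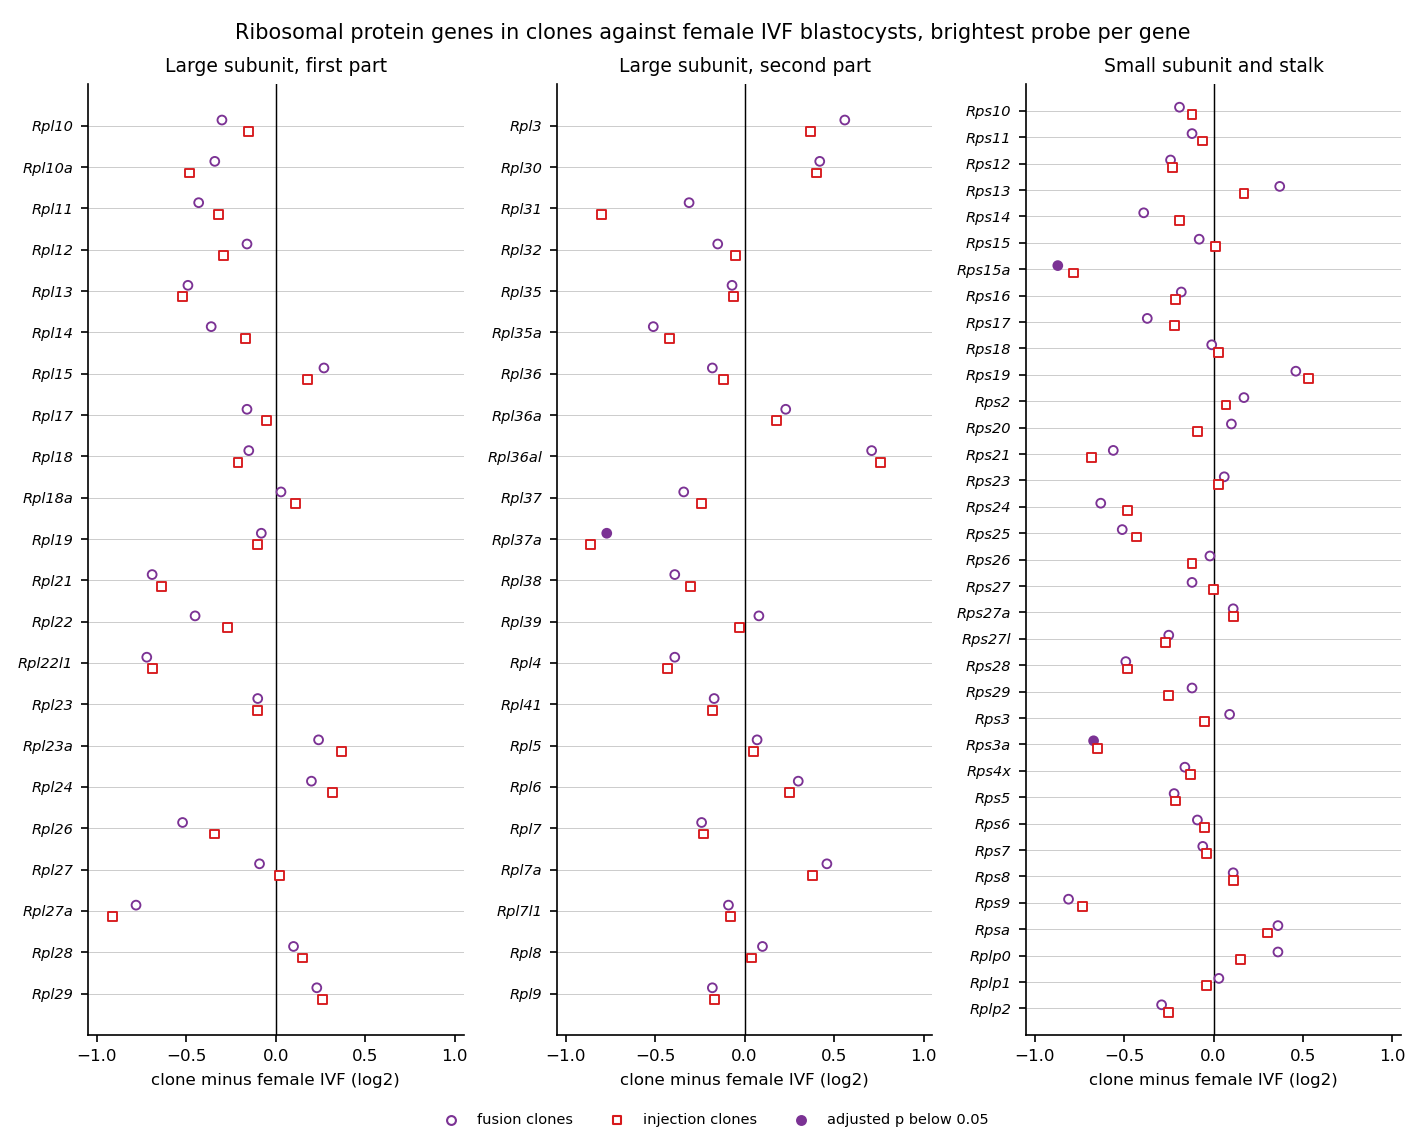
Difference between clones and female IVF-derived embryos (log2) in the brightest probe of each of the ribosomal protein genes tested, for fusion clones (circles, n = 4) and injection clones (squares, n = 4) against the same 3 female arrays. Filled circles mark the 3 genes with an adjusted p below 0.05, and points of both kinds lie between -0.91 and 0.76.

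Injection clones were compared with the same 3 female arrays, so the results of the 2 clone types are not independent. None of the 80 genes was called, and 17 (21.2%) had an unadjusted p below 0.05. That share was 23.2% over all tested probes and 30.9% over those with a mean of at least 14, so the genes did not exceed the background. The smallest p-values belonged to *Rpl27a* (difference -0.91, SE 0.19, adjusted p = 0.0601), *Rps21* (-0.68, SE 0.15, adjusted p = 0.0658) and *Rpl13* (-0.52, SE 0.12, adjusted p = 0.0716). In these probes all 3 were lower in every injection clone than in every female embryo. The other probe of *Rpl27a* (A_51_P418662) differed by 0.39 (SE 0.56, adjusted p = 0.679), in the opposite direction, and the probes of *Rpl13* ran from -0.67 to 0.10. In the same probes fusion clones differed by -0.78, -0.56 and -0.49. *Rps15a*, *Rpl37a* and *Rps3a* differed by -0.78 (adjusted p = 0.0894), -0.86 (adjusted p = 0.1) and -0.65 (adjusted p = 0.0756).

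Over probes, 1 of 133 was higher and 1 lower in injection clones, against 1.51% higher and 2.1% lower over all 32753 tested probes. At the threshold of the methods 4 probes and none of the genes passed, against 14.1% of all tested probes. Of the 2477 tested probes with a mean of at least 14, 165 passed. The injection clones were all lower than the female embryos in 17 of 80 genes (21.2%), against 12.5% of all tested probes, and all higher in 7 genes (8.75%), against 8.36%. The median difference over the genes was -0.11, beside -0.08 over all tested probes, and 68 genes (85%) lay within 0.5 of 0, against 48.1%. The median absolute difference was 0.21 over the genes, 0.34 over the 2477 bright probes and 0.53 over all tested probes. With arrays scaled to their 75th percentile the medians were -0.33 and -0.02.

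Of the probes called, 5 were not the brightest of their gene and were chosen for description after their values were seen. A probe of *Rps28* (A_52_P232909), a small subunit protein, was lower in both clone types. It stood at 15.70, 15.64, 15.44 and 15.44 in fusion clones, 15.54, 15.37, 15.45 and 15.82 in injection clones, 16.67, 16.81 and 16.79 in male and 16.32, 16.67 and 16.61 in female embryos. No clone reached an IVF-derived embryo, and the difference from female embryos was -0.98 (SE 0.18, adjusted p = 0.0256) in fusion and -0.99 (SE 0.17, adjusted p = 0.0423) in injection clones. The other probes of *Rps28* differed by -0.55 and -0.49 in fusion and by -0.55 and -0.48 in injection clones, and were not called.

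A second probe of *Rpl22* (A_52_P391718) was at 13.54, 14.08, 13.92 and 14.01 in fusion clones, 14.15, 13.47, 14.02 and 14.02 in injection clones, 14.43, 15.10 and 15.55 in male and 14.88, 14.74 and 15.66 in female embryos. All clones were lower than all IVF-derived embryos, and the IVF arrays spread widely. The difference was -1.21 (SE 0.28, adjusted p = 0.0466) in fusion and -1.18 (SE 0.29, adjusted p = 0.0773) in injection clones. The second probe of *Rps3a* gave -0.72 (SE 0.17, adjusted p = 0.0497) in fusion clones, close to the value of the brighter one.

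*Rps19*, a small subunit gene mutated in Diamond-Blackfan anaemia, went the other way. Its probe A_51_P337290 was at 13.28, 12.90, 12.94 and 12.99 in fusion clones, 13.16, 13.41, 13.31 and 13 in injection clones, 13.11, 12.25 and 11.80 in male and 12.33, 12.25 and 12.05 in female embryos. Clones exceeded every female embryo, while male replicate 1 lay among the clones. The difference was 0.82 (SE 0.18, adjusted p = 0.0401) in fusion and 1.01 (SE 0.16, adjusted p = 0.0352) in injection clones. The brightest probe gave 0.46 (SE 0.16, adjusted p = 0.13) and 0.53 (SE 0.13, adjusted p = 0.08), again with all clones above all female embryos.

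A single probe named *Rps18* (A_51_P274544) differed far more than any other member probe in fusion clones. It stood at 9.51, 9.98, 9.69 and 9.16 in fusion clones, at 6.68, 8.77, 6.02 and 5.85 in injection clones, at 4, 7.31 and 6.06 in male and at 4.26, 4.90 and 4.63 in female embryos. All fusion clones lay above every other array, and the nearest was injection clone replicate 2. The probe was well above background on 4 of 4 fusion, 4 of 4 injection, 2 of 3 male and 1 of 3 female arrays. Against female embryos the difference was 4.98 in fusion clones (SE 0.26, adjusted p = 0.000562) and 2.23 in injection clones (SE 0.73, adjusted p = 0.142), and between the clone types 2.75 (adjusted p = 0.546). The female arrays lay near the floor, so the size of this difference is set in part by the floor and ran from 3.03 to 5.27 over the alternatives.

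This probe did not follow the *Rps18* mRNA as the curated probes measured it. It was designed on an unclassified RIKEN cDNA on the same strand, and by the array's own coordinates it lies 1868 and 2355 bases to the 5′ side of the 2 probes designed on the curated transcript. Those differed by -0.01 (SE 0.18, adjusted p = 0.972) and 0.30 (SE 0.16, adjusted p = 0.268) in fusion clones. The start window of *Rps18* printed above belongs to the curated gene. With probes restricted to curated transcripts, 1 in place of 2 member probes was higher in fusion clones.

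Different probes of a gene often disagreed in size. In the 41 member genes with 2 or more probes, *Rps19bp1* among them, the median spread between probes of a gene was 0.36 in fusion and 0.42 in injection clones, and the largest were 5 and 2.21. The spread was over 0.5 in 15 and 17 genes, and the probes differed in sign in 14 and 18. Among the genes named above this was so in both clone types for *Rpl11*, *Rpl24*, *Rpl27a* and *Rpl7l1*, in fusion clones for *Rps18*, and in injection clones for *Rps15a*, *Rpl13* and *Rps4x*. These counts include probes near the floor. The dimmer probe of *Rps4x* was at 4 to 5.27 and well above background on 6 of 14 arrays. No gene had probes called in opposite directions.

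**Figure D5:**
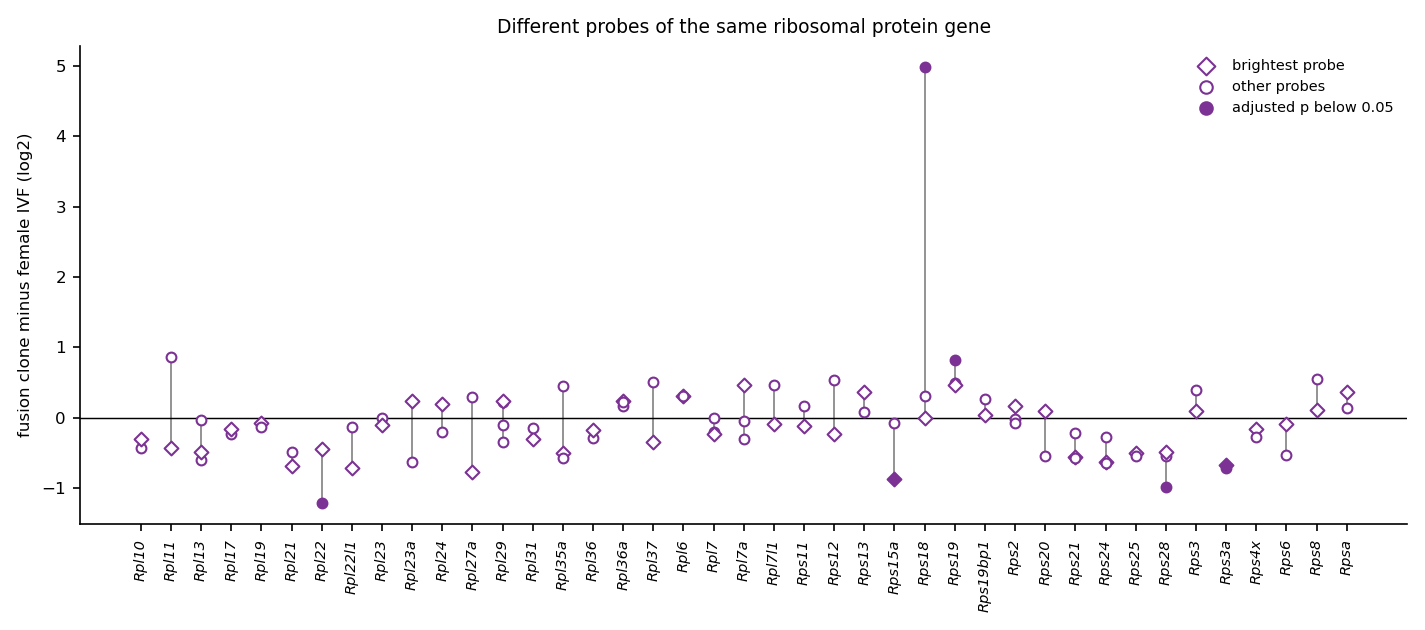
Difference between fusion clones and female IVF-derived embryos (log2) for every tested probe of the 41 member genes with 2 or more probes (*Rps19bp1* among them), joined by a line for each gene, with filled marks at an adjusted p below 0.05. The probe of *Rps18* at 4.98 stands apart from its curated probes, and the other called probes lie between -1.21 and 0.82.

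Fusion clones were compared with injection clones to ask whether the way of transferring the nucleus mattered. No member was called among 134 probes or 81 genes, and no probe of the array was called either (0% higher and 0% lower of 32187). At an unadjusted p below 0.05 were 2 of the 134 member probes (1.49%) and 1975 of all tested probes (6.14%). At the threshold of the methods 1 member probe passed, against 2.43% of all tested probes and 3 of the 2532 with a mean of at least 14. All 81 genes lay within 0.5 of 0, from -0.34 to 0.49, against 73.6% of all tested probes, with a median of -0.01 and a median half-width of the 95% interval of 0.28. The median absolute difference was 0.07 over the genes, 0.11 over the 2532 bright probes and 0.25 over all tested probes. The smallest p-values belonged to *Rps19bp1* (-0.34, SE 0.12, adjusted p = 0.765), *Rplp0* (0.21, SE 0.12, adjusted p = 0.817) and *Rps13* (0.20, SE 0.11, adjusted p = 0.817). *Rps15a*, *Rpl37a* and *Rps3a* differed by -0.09, 0.09 and -0.02.

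Male embryos were compared with female embryos as the difference between IVF-derived groups, with the same female arrays as above. No member was called among 132 probes or 80 genes, and of all 31958 tested probes 0.0282% were called higher and 0.0313% lower. At an unadjusted p below 0.05 were 2 member probes (1.52%) and 1 gene (1.25%). That share was 7.77% over all tested probes and 3.1% over those with a mean of at least 14. At the threshold of the methods none of the members passed, against 5.84% of all tested probes and 27 of the 2450 with a mean of at least 14. Most members were nevertheless on the male side, with 60 of 80 genes positive and a median of 0.12 beside -0.03 over all tested probes. The median was 0.06 without male replicate 1, the highest array, and 0.27 with arrays scaled to their 75th percentile.

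The smallest p-value among the members was that of the X-linked *Rpl39*, at 16.17 on average in male and 16.88 in female embryos, a difference of -0.71 (SE 0.27, adjusted p = 0.633). Every male embryo was below every female embryo in this gene. *Rplp0* and *Rps15* followed with 0.80 (SE 0.33) and 1.06 (SE 0.48), both at an adjusted p of 0.648. The median over the 4 X-linked members was -0.22, with *Rpl10* at -0.29, *Rpl36a* at -0.16 and *Rps4x* at 0. The median half-width of the 95% interval was 0.63 in this comparison, wider than in the others.

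Other genes of the translation machinery were counted by lists, each gene by its brightest probe. Over all tested probes 9.38% were called in fusion clones and 3.61% in injection clones against female embryos. The share called in a list was 8.33% in fusion and 0% in injection clones for initiation factors, 20% and 0% for elongation and termination factors, 10% and 10% for other TOP mRNAs, 8.33% and 8.33% for assembly factors, 8.33% and 0% for RNA polymerase I, and 3.85% and 2.56% for mitochondrial ribosomal proteins. Of 36 initiation factors, 2 were higher and 1 lower in fusion clones, and none was called in injection clones. *Eif5b*, which joins the subunits, rose by 2.51 (SE 0.54, adjusted p = 0.0381), *Eif4a2*, an RNA helicase, rose by 1.16 (SE 0.19, adjusted p = 0.0193), and *Eif3i*, a subunit of eIF3, fell by 1.18 (SE 0.17, adjusted p = 0.0136). Of 10 elongation and termination factors, *Eef2*, the translocase, rose by 1.27 (SE 0.30, adjusted p = 0.0489) and *Abce1*, which recycles ribosomes, fell by 0.74 (SE 0.16, adjusted p = 0.0396) in fusion clones, and none was called in injection clones. The list medians were -0.19 and -0.37 in fusion clones and -0.06 and -0.44 in injection clones.

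Of 20 other genes with TOP mRNAs, which share the start of ribosomal protein mRNAs, *Eef2* was higher and *Vim*, the intermediate filament vimentin, fell by 5.5 in fusion clones (SE 1.19, adjusted p = 0.0395). The mean of *Vim* was 6.65 in fusion clones, with a wide spread (SD 2.22), and 12.15 (SD 0.78) in female embryos, so the size of this fall is uncertain. In injection clones *Vim* fell by 4.92 (SE 0.50, adjusted p = 0.0143) and *Tpt1*, the translationally controlled tumour protein, fell by 0.71 (SE 0.13, adjusted p = 0.0452). The medians were -0.25 and -0.24. Of 48 ribosome assembly factors, 4 were lower in fusion clones, and 3 were lower and 1 higher in injection clones, with medians of -0.31 and -0.21. *Gnl2*, a nucleolar GTPase, fell by 1.25 (SE 0.19, adjusted p = 0.0163) in fusion clones and by 1.17 (SE 0.22, adjusted p = 0.0484) in injection clones. *Nop2*, an rRNA methyltransferase, fell by 0.92 in fusion clones (adjusted p = 0.0246), *Riok1*, a kinase of small subunit maturation, fell by 0.84 and 1.03 (adjusted p = 0.0472 and 0.0471), and *Bop1*, a large subunit assembly factor, fell by 0.84 and 0.93 (adjusted p = 0.0364 and 0.0412).

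Of 12 RNA polymerase I genes, which serve rRNA synthesis, *Ttf1*, its terminator, rose by 2.88 (SE 0.38, adjusted p = 0.011) in fusion clones and none was called in injection clones. The mitochondrial ribosome, with 78 genes, was set beside the cytosolic one. In fusion clones 3 genes were higher and none lower, *Mrps23* by 0.91 (adjusted p = 0.0381), *Mrpl16* by 0.85 (adjusted p = 0.0374) and *Mrpl53* by 0.80 (adjusted p = 0.0433). In injection clones *Mrps23* was higher by 1.04 (adjusted p = 0.0325) and *Mrpl22* by 1.02 (adjusted p = 0.0433). The medians were -0.03 and -0.02, and none of these lists had a called gene between clone types or between the sexes.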

How the data were processed

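The authors deposited the Feature Extraction output of each of the 14 arrays, with the processed intensity of every spot after background subtraction, and a table of log2 values that is centred per probe and so holds no level. That table was used as an alternative and only for differences. The submitters' processing notes name Agilent Feature Extraction 10.5.1. Gene names came from the deposited files, and chromosomes and start windows from RefSeq (GRCm38.p6).

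The 1639 control spots were left out, and 101 to 338 outlier spots per array were set to missing. Quantile normalization over all arrays was applied to the processed intensities of 43379 gene spots. Values under a floor of 16 were raised to it, log2 was taken, and spots of the same probe were averaged. Each pair of groups was fitted with limma 3.58.1 (lmFit, eBayes) in R 4.3.3. Tests covered the probes detected (well above background) on 1 or more arrays of the pair of groups, with Benjamini-Hochberg adjustment over all tested probes. A gene is given by its brightest probe, that with values on the most arrays and then the highest mean. *Rpl13a* was not tested against female embryos because its spots were outliers. The scripts were tested on simulated data. Python 3.11.15 and matplotlib 3.10.9 were used for reading and drawing.

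Named genes are, per comparison, the up to 8 largest rises and falls among called genes, or the 3 smallest p-values where fewer than 3 were called, with the X-linked, stalk and paralog genes and *Rpsa*, *Rps6*, *Rps19*, *Rpl5*, *Rpl11*, *Rpl38* and *Rpl24*. *Rpl3* and *Rpl36a* appear as parents of paralogs. At most 3 called genes are named per other list. Members and lists were chosen with earlier results of these data known. Male and female embryos with the same replicate number deviated together (correlation 0.15 to 0.17 in 3 pairs), so these were also fitted as pairs. For the other pairs of groups a pairing by number was not established, and the replicate block was fitted there as an alternative only. Alternatives covered the scaling, background, floor, filter, summary by gene, variance model, the samples in the fit and each array in turn. The precision is limited by the number of arrays.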

Additional observations from a re-analysis of the deposited data

Results flagged for a closer look

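Within groups of 4 arrays, 3 values stood far from the rest by Dixon's criterion, among 62 groups tested, where chance gives about 1 in 20. *Rps4x* was at 17.47 in fusion clone replicate 4, with the others at 17.89 to 17.97. *Rps19* was at 16.29 in fusion clone replicate 1, with the others at 16.02 to 16.07. *Rplp1* was at 18.19 in injection clone replicate 4, with the others at 18.27.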

How the results depend on the processing

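The median over the genes was negative for both clone types against female embryos and positive for male against female embryos in every alternative run. Between clone types it lay between -0.05 and 0.02. Scaling to the 75th percentile gave medians of -0.33 in fusion clones, -0.33 in injection clones and 0.27 in males, and the deposited log2 table -0.29, -0.30 and 0.27, while it moved the median of all tested probes to 0.04 in fusion and 0.07 in injection clones. Lower member probes in fusion clones numbered 12 (75th percentile), 2 (deposited table or floor 1), 17 (floor 32), 11 (no detection filter), 3 (probes averaged by gene), 18 (variance trend) and 12 (all 4 groups in 1 fit), and higher ones 1 (deposited table, floor 1 or curated transcripts, the last added after seeing the data), 9 (floor 32), 7 (no filter) and 6 (variance trend). Between higher and lower calls, the split was 2 to 12 at the 75th percentile beside 2 to 6 as reported, and 1 to 2 in the deposited table. In injection clones lower probes numbered 2 (normexp), 5 (floor 32 or variance trend), 3 (no filter), 0 (averaged) and 13 (all groups), and higher ones 0 (deposited table, floor 1 or averaged), 3 (floor 32 or no filter) and 2 (variance trend or all groups). The causes were not tested.

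Without 1 array at a time, the fusion median ran from -0.18 to -0.08 with 1 to 2 probes higher and 0 to 1 lower, the injection median from -0.16 to -0.06 with 0 to 1 higher and 0 to 1 lower, the median between clone types from -0.05 to 0.02 and that between the sexes from 0.06 to 0.17, both with 0 calls. With the replicate block, which left no probe of the array called in these fits, 0 member probes were higher and 0 lower against female embryos in either clone type. Same-numbered arrays correlated at -0.02 to 0.10 for fusion and -0.12 to -0.04 for injection clones, and 4 of 6 and 0 of 6 arrays correlated best with their own number. The reported fits did not treat these numbers as a pairing. So few pairs cannot show that there was none. In male against female embryos, where 6 of 6 did, the block took the calls over all tested probes from 19 to 0, while no member probe was called with or without it. The *Rps18* cDNA probe passed in 15 of 16 alternatives, with differences of 3.03 to 5.27. The slide as a block could not be fitted, because each slide held 1 group.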
